A study of Mus musculus with 8 samples.

Results

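The interleukins and their receptors were examined in kidney RNA of day 3 following ischaemia-reperfusion injury (IRI), in which the blood supply of the kidney is stopped and then restored. Members were all protein-coding mouse genes whose symbol begins with Il and a digit, which took 68 of the 34450 genes in the deposited table. A further 16 annotated genes that meet the rule, Il17a, Il13 and Il22 among them, were not analysed here. All libraries came from C57BL/6J mice aged 8 weeks whose kidneys had undergone IRI. In the 4 hypoxia libraries (HxIRI, numbered 1 to 4) the mice had been kept in low oxygen before the injury, and in the 4 normoxia libraries (IRI, numbered 5 to 8) they had been kept in normal oxygen. All comparisons are therefore between injured kidneys, since uninjured kidney was not analysed here. The labels do not say that each library is a separate mouse, and p-values therefore measure the spread between libraries, which may be technical.

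Interleukins are secreted proteins through which immune, epithelial and stromal cells signal to each other. Those of the IL-1 family act through receptors that recruit the adaptor MyD88, and several are held in check by soluble antagonists or decoy receptors. Most of the others act through paired receptor chains that activate JAK kinases and STAT transcription factors, with one chain binding the cytokine and another, shared chain carrying the signal. In the injured kidney, dying tubular cells release IL-1 family proteins, and infiltrating leukocytes bring further cytokines and receptors.

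Levels are FPKM, fragments normalised to transcript length and to the size of the library, which allows genes of different length to be compared. Of the 68 members, 58 were above 0 in at least 1 library, 31 were above 0 in all 8, and 10 were listed at 0 in all 8. The level was low for most of them: 18 had a mean of at least 1 FPKM over the 8 libraries, and 3 had a mean of at least 5 FPKM. The 25 members with a mean of at least 0.5 FPKM were tested together with all 14444 genes that passed this filter. For 6 of the 25, the hypoxia mean was under 0.5 FPKM, so that they passed through the normoxia libraries, and for none was the reverse true. The remaining 43 members were not tested and are given as values.

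After hypoxia, 1 of the 25 tested members was lower and 0 were higher at an adjusted p under 0.05 (limma on log2(FPKM + 0.5), two-sided, Benjamini-Hochberg over all 14444 genes). The member was Il1rn, which encodes the antagonist of the IL-1 receptor and was 1 of the 6 that passed the filter through the normoxia libraries. Over all tested genes, 0.602% were lower and 0.305% were higher by the same rule. At an unadjusted p under 0.05, 5 members passed, all of them lower after hypoxia (Il1rn, Il3ra, Il5ra, Il34 and Il1r2), beside 6.84% of all tested genes lower and 2.52% higher. Il3ra and Il1r2, with hypoxia means of 0.228 and 0.0725 FPKM, were like Il1rn among the 6 that passed the filter through normoxia. For such members the filter itself favours a lower value after hypoxia. The log2 change was below 0 for 21 of the 25 members, beside 61.0% of all tested genes, with a median of -0.62 against -0.14 for all tested genes. Without the 6 members that passed the filter through normoxia, all of which were below 0, it was below 0 for 15 of 19, with a median of -0.61. Among the 13043 tested genes with both group means of at least 0.5 FPKM, 59.7% were below 0 and the median was -0.11. Scaling by TMM (trimmed mean of M values), which moved the median of all genes by 0.15 to 0.016, left 19 of the 25 below 0 with a median of -0.43.

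More members passed when the libraries were rescaled, as did more genes in general. By TMM, 2 members were lower (Il1rn and Il5ra) beside 1.32% of all tested genes, and 0 were higher beside 1.21%. By quantile normalization, 2 were lower beside 2.42% and 0 higher beside 1.94%. Scaling each library to its fragments in protein-coding genes, named below as protein-coding scaling, gave 2 lower (Il1rn and Il5ra) beside 1.58% and 0 higher beside 1.02%. Without normoxia library 5, which was unlike the rest, 5 were lower by TMM (Il1rn, Il33, Il3ra, Il4ra and Il5ra) beside 5.34%, and 0 higher beside 5.77%. By protein-coding scaling without it, 8 were lower beside 8.92%, with Il10ra, Il17rb and Il1r1 added, and 0 were higher beside 3.72%. Without normoxia library 7, protein-coding scaling gave 0 lower beside 0.0623% and 0 higher beside 0.145%. The direction of these calls was the same in every setting that made them.

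The libraries differed in composition. An estimated 13.5% to 72.5% of fragments came from ribosomal loci and 20.3% to 60.3% from protein-coding genes, out of roughly 8400000 to 14500000 fragments per library. An FPKM value is relative to all mapped fragments. Results of the tested members are therefore given below by protein-coding scaling as well, where it changes the groups' overlap or the call. Single signalling genes, untested members and marker sums are given as deposited only, and scaling may change their overlap. Normoxia library 5 was the least like the others, its Spearman correlation with them averaging 0.633, where the rest had 0.767 to 0.832. The hypoxia libraries formed 2 pairs, with a correlation of 0.924 between libraries 1 and 2, 0.921 between 3 and 4, and 0.833 to 0.853 across the pairs. In 19 of the 25 members, libraries 1 and 2 were both above libraries 3 and 4, as they were for 79.1% of all tested genes, and after protein-coding scaling this held for 9 members and 27.4% of all tested genes. Normoxia library 7 was the highest of all 8 libraries for 17 of the 25 members and for 50.4% of all tested genes. Proximal tubule markers summed to between 84.7 and 575 FPKM, so the libraries carried the markers of kidney.

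**Figure D1:**
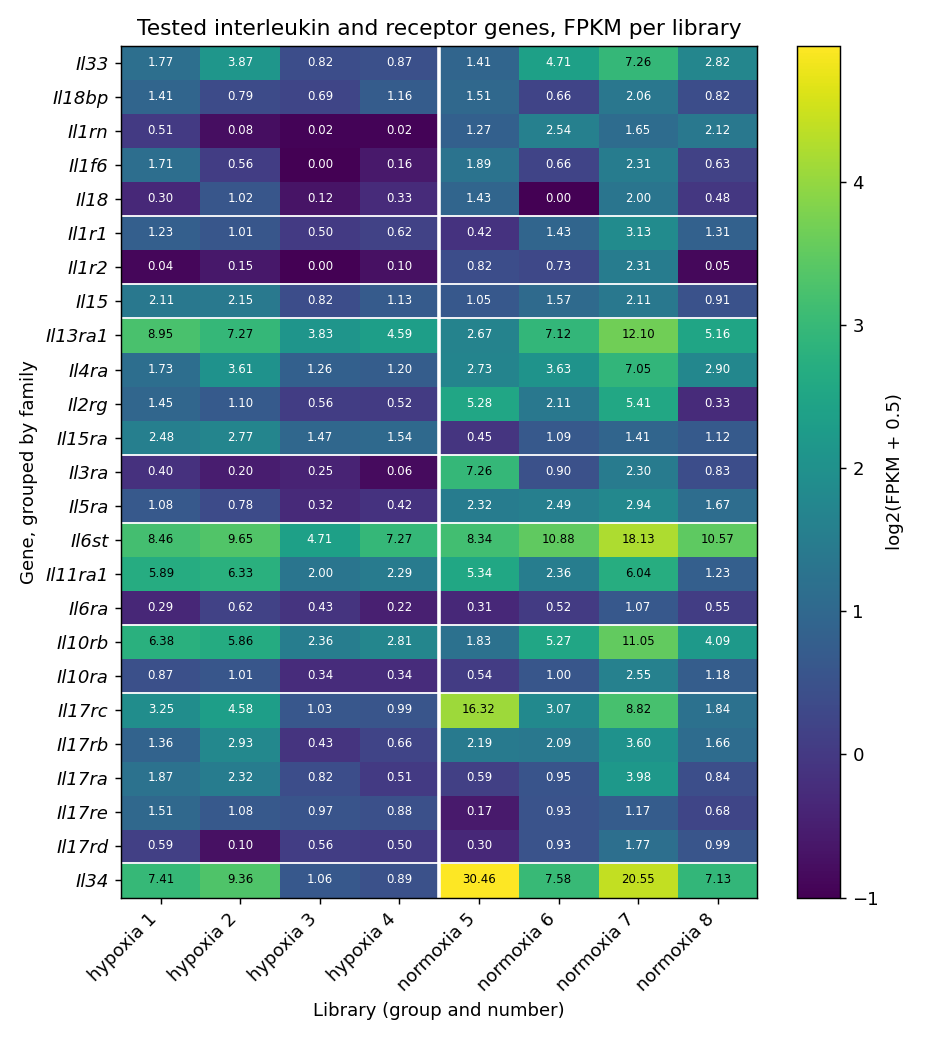
FPKM of the 25 tested members (vertical axis) in each of the 8 libraries (horizontal axis), coloured on a log scale with the value printed in each cell. Il34, Il6st and Il13ra1 have the highest means, and normoxia library 7 is the highest library for 17 of the 25 genes.

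On the values as deposited, summed markers of macrophages, of tubular injury and of fibroblasts did not overlap between the groups. The sums were not rescaled, and no like share over other sets of genes was computed. The 9 macrophage and monocyte markers summed to between 20.1 and 100 FPKM after hypoxia and between 128 and 788 FPKM after normoxia, with 0 of 9 passing the test. The 5 tubular injury markers summed to 7.4 to 126 against 227 to 608 FPKM, with 2 of 5 lower (Sox9 and Krt20). Fibroblast and pericyte markers summed to 15.1 to 32.1 against 34.4 to 128 FPKM, with 0 of 4 passing. Neutrophil markers (0 to 3.69 against 1.99 to 61.4 FPKM) and T cell markers (0.05 to 1.33 against 0.15 to 2.06 FPKM) overlapped between groups. So did those of B and plasma cells (0.22 to 0.26 against 0 to 2.21) and dendritic cells (0.67 to 1.45 against 0.51 to 1.72). Thick ascending limb and distal tubule markers (379 to 1660 against 150 to 550 FPKM, 1 of 4 higher) overlapped too. Collecting duct markers (48 to 187 against 13.9 to 72.6 FPKM) and every remaining list also overlapped. Of the 4 mast cell genes, Cma1, Mcpt4 and Cpa3 were at 0 in all libraries. The remaining gene, Kit, was at 0.51 to 1.52 against 0.19 to 1.21 FPKM. In whole kidney, fewer cells of a type and less RNA per cell cannot be told apart, and the part of these cell types in the values of Il1rn, Il3ra, Il5ra and Il34 was not tested.

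Il1rn lies on chromosome 2 (GENCODE M21, GRCm38, positions 24336853 to 24351494, plus strand, ENSMUSG00000026981). It is transcribed from alternative starts that give secreted and intracellular forms of the antagonist, and the gene-level values here do not tell them apart. Il5ra, the alpha chain of the IL-5 receptor that marks eosinophils and some B cells, lies on chromosome 6 (106710357 to 106749037, minus strand, ENSMUSG00000005364). These genes are shown with the 250 bases before their annotated starts because they were the members called lower under protein-coding scaling. The sequences are from RefSeq (GRCm38.p6), which gave a window for 53 of the 68 members. They are 5′ to 3′ on the strand of the gene, at chr2:24336610-24336859 and chr2:24345041-24345290 for Il1rn and at chr6:106749038-106749287 for Il5ra, with a match to the AP-1 motif in capitals.
Il1rn, first start: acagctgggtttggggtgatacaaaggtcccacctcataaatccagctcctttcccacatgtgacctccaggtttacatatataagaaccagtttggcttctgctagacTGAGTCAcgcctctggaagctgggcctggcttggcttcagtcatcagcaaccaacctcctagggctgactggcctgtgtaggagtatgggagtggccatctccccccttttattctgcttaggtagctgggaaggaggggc
Il1rn, second start: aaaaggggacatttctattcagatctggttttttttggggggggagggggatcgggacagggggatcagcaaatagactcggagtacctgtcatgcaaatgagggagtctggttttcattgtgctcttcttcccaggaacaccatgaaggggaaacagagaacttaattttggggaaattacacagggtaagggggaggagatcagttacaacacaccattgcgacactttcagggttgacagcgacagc
Il5ra: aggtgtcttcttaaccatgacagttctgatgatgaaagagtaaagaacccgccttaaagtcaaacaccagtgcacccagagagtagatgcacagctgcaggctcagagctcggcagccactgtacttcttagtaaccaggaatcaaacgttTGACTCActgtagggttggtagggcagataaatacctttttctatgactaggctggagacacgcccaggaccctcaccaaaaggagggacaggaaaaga
The letters searched, on both strands, were TGANTCA for AP-1, GGAAGT for ETS factors, ACGTG for the core of the hypoxia response element and TTCNNNGAA for STAT. The first Il1rn window and the Il5ra window each held 1 AP-1 match, and the second Il1rn window held none of the 4 motifs. The remaining Il1rn window (chr2:24345121-24345370), which overlaps the one before it and is not printed, held none either. Windows of 2 members that were not called were also searched and are not printed. For Il15ra, whose log2 change was above 0, the second of 2 windows held 1 AP-1 match and the first held none of the motifs. The Il3ra window held 1 ETS match and 0 AP-1 matches. Windows of so few genes cannot show whether the letters go with the direction of change, which was not tested. Over all 32851 RefSeq windows of this length, 6.75% held the AP-1 letters, 19.7% the ETS letters, 16.6% the hypoxia core and 7.02% the STAT letters. A match describes the letters only, and no binding was measured.

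Among the IL-1 family ligands and antagonists, 9 genes were analysed, 5 were tested and 1 was lower. Il1rn was at 0.51, 0.08, 0.02 and 0.02 FPKM in hypoxia libraries 1 to 4, and at 1.27, 2.54, 1.65 and 2.12 FPKM in normoxia libraries 5 to 8. All hypoxia values were below all normoxia values, and hypoxia library 1 was above the rest of its group. The hypoxia mean was 0.158 ± 0.237 FPKM (SD, n = 4), against a normoxia mean of 1.90 ± 0.553 FPKM (SD, n = 4). The log2 change was -1.90 (SE 0.40, 95% interval -2.73 to -1.06), with a limma adjusted p of 0.0226. These values rest on few reads, an estimated 34, 6, 1 and 1 fragments in the hypoxia libraries and 96 to 134 in the normoxia libraries. With each library left out in turn, the adjusted p was between 0.0116 and 0.0693, and it was above 0.05 without hypoxia library 2 (0.0549), 3 (0.0568) or 4 (0.0548) or normoxia library 7 (0.0693). Protein-coding scaling gave the same log2 change of -1.90, with an adjusted p of 0.0383.

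The remaining IL-1 family ligands were low and their groups overlapped. Il33, an alarmin released from the nuclei of damaged cells, was at 1.77, 3.87, 0.82 and 0.87 FPKM after hypoxia and at 1.41, 4.71, 7.26 and 2.82 FPKM after normoxia. Its log2 change was -0.96 (SE 0.54, limma adjusted p = 0.67), with the lowest normoxia library inside the hypoxia range. Il1f6, which encodes IL-36 alpha, ranged from 0 to 1.71 FPKM after hypoxia and from 0.63 to 2.31 FPKM after normoxia (log2 change -0.88, limma adjusted p = 0.635). Il18, which is activated by caspase-1, ranged from 0.12 to 1.02 and from 0 to 2 FPKM (log2 change -0.48, limma adjusted p = 0.921). Il18bp, the remaining tested gene of this family, was chosen after its values were seen. It ranged from 0.69 to 1.41 and from 0.66 to 2.06 FPKM (log2 change -0.17, limma adjusted p = 0.999). Il1b, the inflammatory ligand that Il1rn opposes, fell under the filter. It was at 0.39, 0.17, 0 and 0.06 FPKM after hypoxia and at 0.36, 0.22, 2.18 and 0.45 FPKM after normoxia, so that the groups overlapped and library 7 alone was above 0.45 FPKM. An antisense gene, Il1bos, overlaps Il1b, and it is not stated whether counting used strand.

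Of 8 IL-1 family receptors, 2 were tested and 0 passed. Il1r2, a decoy receptor that binds IL-1 without signalling, was at 0.04, 0.15, 0 and 0.10 FPKM after hypoxia and at 0.82, 0.73, 2.31 and 0.05 FPKM after normoxia. Normoxia libraries 5, 6 and 7 were above all hypoxia libraries and library 8 was within their range. For Il1r2 the log2 change was -1.14 (SE 0.43, limma adjusted p = 0.294). Il1r1, the signalling receptor, was chosen after its values were seen and ranged from 0.5 to 1.23 FPKM and from 0.42 to 3.13 FPKM (log2 change -0.50, limma adjusted p = 0.906). Both chains of the IL-18 receptor, chosen after their values were seen, were under the filter. They did not overlap between groups on the values as deposited, which depend on the composition of each library, and scaled values are not given. Il18r1 was at 0.09 to 0.17 FPKM after hypoxia and 0.21 to 0.75 FPKM after normoxia, and Il18rap at 0.02 to 0.12 and 0.20 to 0.78 FPKM.

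The common beta chain family held the members with the next smallest p, with neither of its 2 tested genes called. Il3ra, the alpha chain of the IL-3 receptor, found on basophils, plasmacytoid dendritic cells and progenitors, lies on chromosome 14 (14346275 to 14356011, plus strand, ENSMUSG00000068758). It was at 0.40, 0.20, 0.25 and 0.06 FPKM after hypoxia and at 7.26, 0.90, 2.30 and 0.83 FPKM after normoxia. The groups did not overlap, and normoxia library 5 was the highest. The log2 change was -1.81 (SE 0.49, limma adjusted p = 0.0748), and the adjusted p was 0.0131 without normoxia library 6, 0.0154 without library 8, 0.306 without library 7 and 0.145 without library 5, where the log2 change was -1.27. A predicted gene, Gm48860, overlaps Il3ra on the opposite strand, so its reads may be mixed with those of Il3ra.

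Il5ra was at 1.08, 0.78, 0.32 and 0.42 FPKM after hypoxia and at 2.32, 2.49, 2.94 and 1.67 FPKM after normoxia. The groups did not overlap, and the normoxia libraries lay close together, with a mean of 2.35 ± 0.526 FPKM (SD, n = 4) against 0.65 ± 0.348 FPKM (SD, n = 4). The log2 change was -1.34 (SE 0.43, limma adjusted p = 0.159) on the values as deposited. It passed after scaling, with a limma adjusted p of 0.0301 by TMM, 0.0216 by quantile normalization and 0.0447 by protein-coding scaling. It did not pass under protein-coding scaling without normoxia library 7 (0.106). Csf2rb, the beta chain that both receptors share, was chosen after its values were seen and was at most 0.49 FPKM in every library.

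**Figure D2:**
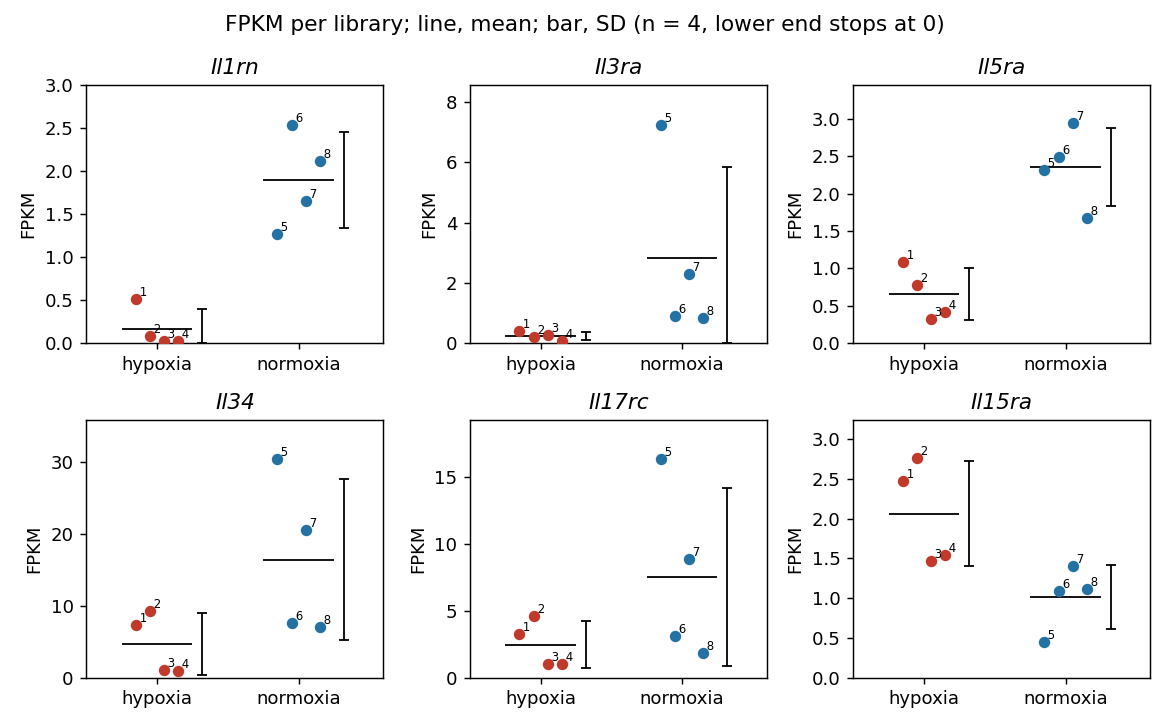
FPKM (vertical axis, from 0) of Il1rn, Il3ra, Il5ra, Il34, Il17rc and Il15ra in each library, with hypoxia and normoxia apart, the mean as a line and the SD as a bar (n = 4 each). The hypoxia points lie below all normoxia points for Il1rn, Il3ra and Il5ra and above them for Il15ra, while Il34 and Il17rc overlap.

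Il34, the second ligand of the macrophage growth factor receptor Csf1r, which tubular epithelium makes, had the highest mean of all members. It was at 7.41, 9.36, 1.06 and 0.89 FPKM after hypoxia and at 30.46, 7.58, 20.55 and 7.13 FPKM after normoxia. Hypoxia libraries 1 and 2 lay at the level of normoxia libraries 6 and 8. Its log2 change was -1.97 (SE 0.72, 95% interval -3.45 to -0.50), with a limma adjusted p of 0.259. After protein-coding scaling the groups no longer overlapped, at 1.40 to 5.99 against 9.07 to 21.5, and the limma adjusted p was 0.0694. By that scaling the hypoxia values lay below all normoxia values for 5 members (Il1rn, Il3ra, Il5ra, Il34 and Il17rc), beside 7.02% of all tested genes, and above them for 0, beside 5.26%. Gm15894 and Gm15895 overlap Il34 on the opposite strand.

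Of 8 receptors of the common gamma chain and type 2 cytokines, 4 were tested and 0 passed. Il15ra, which binds IL-15 and presents it to neighbouring cells, was the 1 tested member with all hypoxia values above all normoxia values. It was at 2.48, 2.77, 1.47 and 1.54 FPKM after hypoxia and at 0.45, 1.09, 1.41 and 1.12 FPKM after normoxia. Its log2 change was 0.77 (SE 0.44, 95% interval -0.13 to 1.67), with a limma adjusted p of 0.678. After protein-coding scaling the lowest hypoxia value was 1.68 and the highest normoxia value 1.77, so that the groups overlapped. On the values as deposited, 1.86% of all tested genes had every hypoxia value above every normoxia value, and 3.06% had every one below, as 3 of the 25 members did.

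Il2rg, the gamma chain shared by the receptors of IL-2, IL-4, IL-7, IL-15 and IL-21, was at 1.45, 1.10, 0.56 and 0.52 FPKM after hypoxia and at 5.28, 2.11, 5.41 and 0.33 FPKM after normoxia. Normoxia library 8 was the lowest of all 8 libraries, and the log2 change was -1.11 (SE 0.54, limma adjusted p = 0.534). Il4ra, the chain through which IL-4 and IL-13 both signal, ranged from 1.20 to 3.61 FPKM and from 2.73 to 7.05 FPKM (log2 change -0.91, limma adjusted p = 0.66). Its partner in the type 2 receptor, Il13ra1, was the third most abundant member, at 3.83 to 8.95 FPKM after hypoxia and 2.67 to 12.1 FPKM after normoxia. The log2 change of Il13ra1 was -0.02 with a 95% interval of -1.26 to 1.22, and it was 0.17 by TMM. Il21r, a partner of Il2rg chosen after its values were seen, was under the filter, at 0 to 0.18 FPKM after hypoxia and 0.24 to 1.22 FPKM after normoxia.

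The IL-6 family was represented by its receptors, of which 3 were tested and 0 passed. Il6st, the signalling chain gp130 shared by IL-6, IL-11 and LIF, was at 8.46, 9.65, 4.71 and 7.27 FPKM after hypoxia and at 8.34, 10.88, 18.13 and 10.57 FPKM after normoxia. The groups overlapped, and the log2 change was -0.62 (SE 0.62, limma adjusted p = 0.923). Il11ra1, the IL-11 receptor, ranged from 2 to 6.33 FPKM and from 1.23 to 6.04 FPKM (log2 change 0.17, 95% interval -1.01 to 1.35). Near-identical copies of it (Il11ra2) could take some of its reads. Il6 itself was listed at 0 in all 4 hypoxia libraries and was at 0, 0.09, 0.08 and 0.08 FPKM in normoxia libraries 5 to 8.

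In the IL-10 family, Il10rb, a chain shared by the receptors of IL-10 and IL-22, was the most abundant, at 2.36 to 6.38 FPKM after hypoxia and 1.83 to 11.05 FPKM after normoxia (log2 change -0.20, 95% interval -1.41 to 1.02). Il10, which restrains inflammation, was listed at 0 in all 8 libraries. Il22ra1, the epithelial chain of the IL-22 receptor, was chosen after its values were seen and was at 0.25, 0.30, 0.52 and 0.59 FPKM after hypoxia and at 0.20, 0.15, 0.18 and 0.09 FPKM after normoxia. It was under the filter and untested, and its groups did not overlap on the values as deposited. Il24, a cytokine of this family also chosen after its values were seen, was listed at 0 in the 4 hypoxia libraries and was at 0.38, 0.61, 1.38 and 0 FPKM in normoxia libraries 5 to 8. On the values as deposited, 6 of all 58 members above 0 had every hypoxia value below every normoxia value, beside 2.21% of all genes above 0. Another 2 had every one above, beside 1.37%.

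All 5 IL-17 family receptors were tested, and 0 passed, with a median log2 change of -0.62. Il17rc, which pairs with Il17ra to bind IL-17A and IL-17F, was at 3.25, 4.58, 1.03 and 0.99 FPKM after hypoxia and at 16.32, 3.07, 8.82 and 1.84 FPKM after normoxia. Libraries 6 and 8 lay within the hypoxia range, and the log2 change was -1.23 (SE 0.63, limma adjusted p = 0.585). Il17rb, the receptor of IL-25, ranged from 0.43 to 2.93 FPKM and from 1.66 to 3.60 FPKM (log2 change -0.79, limma adjusted p = 0.715). None of the 4 IL-17 cytokines analysed passed the filter. Chosen after their values were seen, Il17c reached 0.42 FPKM in normoxia library 6 and Il17d 0.34 FPKM in hypoxia library 2, while Il25 was listed at 0 throughout.

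**Figure D3:**
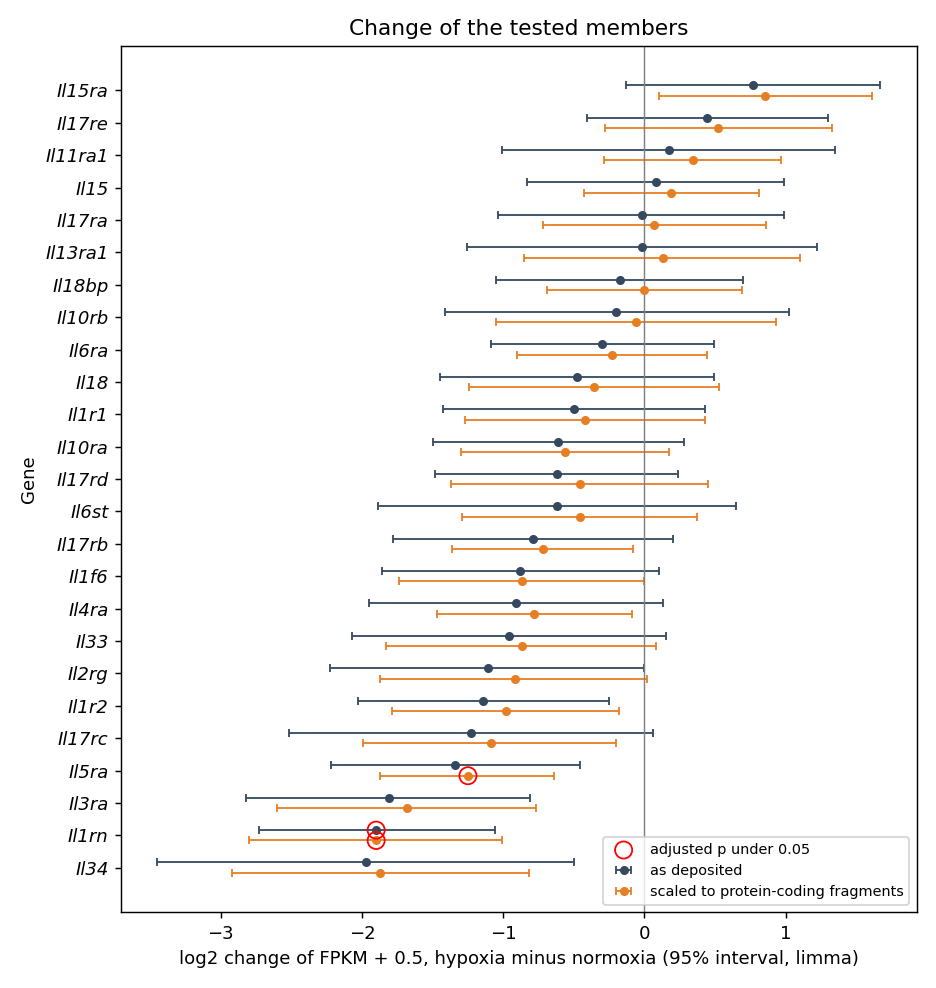
Log2 change, hypoxia minus normoxia (horizontal axis), of the 25 tested members with 95% intervals, for the values as deposited and after protein-coding scaling, with red circles at an adjusted p under 0.05. Il1rn lies furthest from 0 relative to its interval, at -1.90 by both, and 21 of the 25 values as deposited are below 0.

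The 10 members listed at 0 in all 8 libraries were Il2, Il9, Il10, Il12a, Il12b, Il12rb2, Il19, Il20ra, Il23r and Il25, most of them made by or acting on lymphocytes and antigen-presenting cells. At this depth a value of 0 means only that the table lists none.

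The other genes of interleukin signalling were taken from lists of JAK, STAT and SOCS genes, IL-1 and IL-17 adaptors, and partner cytokines and receptors. Of 56 genes, 45 were tested, 0 were higher and 0 were lower at an adjusted p under 0.05. At an unadjusted p under 0.05, 9 of the 45 were lower and 0 higher, beside 6.84% and 2.52% of all tested genes. The median log2 change was -0.39, with 32 of 45 below 0, beside -0.14 and 61.0% for all tested genes. By TMM it was -0.24 with 25 below 0, beside 0.016 and 48.9%, and by protein-coding scaling -0.28 with 27 below 0, beside -0.015 and 51.1%. Socs3, a feedback inhibitor induced by gp130 signalling, was at 2.65, 3.37, 0.89 and 0.82 FPKM after hypoxia and at 2.66, 4.61, 11.53 and 2.91 FPKM after normoxia (log2 change -1.22, limma adjusted p = 0.479). Casp1, the protease that matures IL-1 beta and IL-18, ranged from 0 to 0.64 FPKM and from 0.37 to 2.54 FPKM (log2 change -1.04, limma adjusted p = 0.417). Stat3, Myd88, Osmr and Csf1r had log2 changes of -0.27, -0.30, -0.68 and -0.92, with limma adjusted p from 0.78 to 0.999.

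Levels were then set against the partner gene in the same library, since a ratio of 2 genes does not depend on how the library was scaled. The 18 pairs were chosen with the values known, so the ratios are a description with no test. Of the 16 pairs above 0 in every library, the hypoxia ratios lay below all normoxia ratios in 5, above them in 0 and overlapped in 11. A like share over gene pairs was not computed, and the share for single tested genes (7.02% below after protein-coding scaling) is not one for ratios. The ratio of the antagonist Il1rn to the receptor Il1r1 was 0.0323 to 0.415 after hypoxia and 0.527 to 3.02 after normoxia. For Il34 and its receptor Csf1r it was 0.328 to 1.16 against 1.30 to 1.61. For Il17rc and Il17ra it was 1.26 to 1.97 against 2.19 to 27.7, and for Il4ra and Il13ra1 it was 0.193 to 0.497 against 0.51 to 1.02. Normoxia library 5 held the highest of the Il1rn, Il17rc and Il4ra ratios, and without it the highest normoxia ratios were 1.78, 3.23 and 0.583. The ratio of Il10ra to Il10rb was 0.121 to 0.172 against 0.19 to 0.295. The ratio of Il15ra to Il15 was 1.18 to 1.79 against 0.429 to 1.23, which overlapped. Overlap was also seen for Il34 to its other partner Csf1, at 0.84 to 5.11 against 1.05 to 9.29. Il3ra to Csf2rb overlapped at 1.5 to 2.5 against 2.2 to 182, and Il5ra to Csf2rb at 2.29 to 10.5 against 5.76 to 58.

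**Figure D4:**
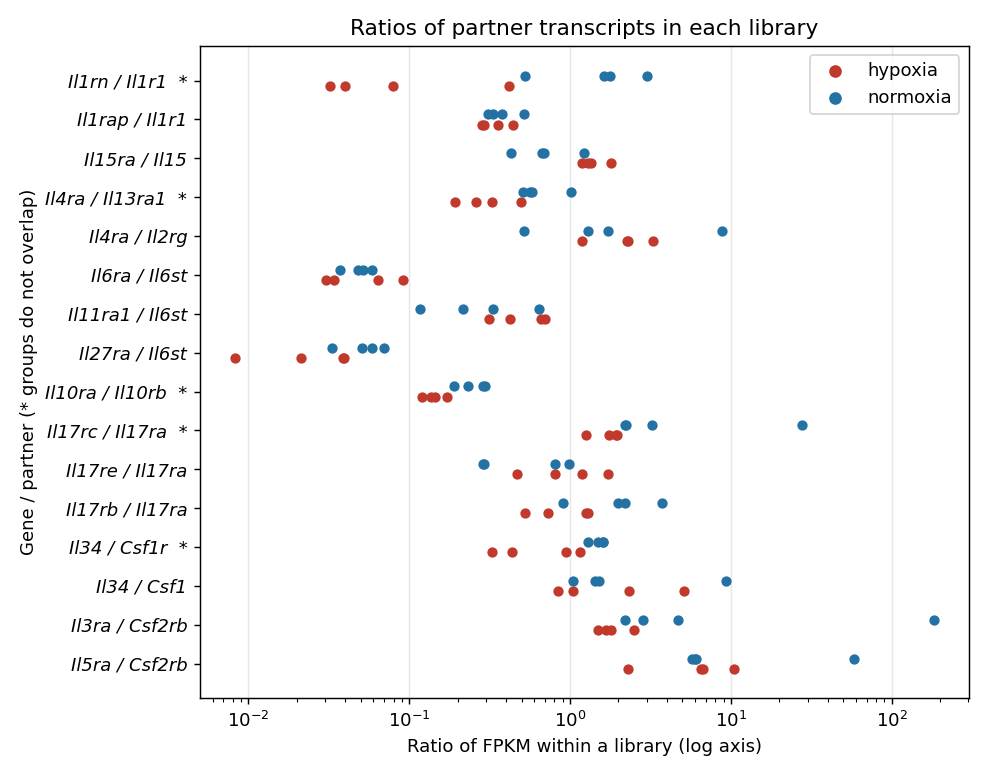
Ratio of FPKM between partner genes (horizontal axis, log scale) in each of the 8 libraries, for the 16 pairs above 0 in every library (vertical axis), with an asterisk where the groups do not overlap. For Il1rn to Il1r1 the hypoxia points lie between 0.0323 and 0.415 and the normoxia points between 0.527 and 3.02.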

How the data were processed

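Poly(A) RNA of 8 kidney samples was sequenced from TruSeq stranded mRNA libraries, per the labels' protocols. The submitters' processing notes name the tools edgeR, HISAT2 and StringTie without version or role. For the build, the annotation and any use of strand in counting, the sources used here give nothing. The authors' deposited table holds FPKM in 2 decimals, per the file headers, with no recorded scaling between libraries. All 34450 Ensembl identifiers matched GENCODE M21 (GRCm38), which gave symbols, exon lengths and coordinates. Members and lists were chosen with earlier results of these data known.

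log2(FPKM + 0.5) was tested with limma 3.58.1 (R 4.3.3, lmFit, eBayes with trend, two-sided) in the 14444 genes with a mean of at least 0.5 FPKM, with Benjamini-Hochberg adjustment. On this scale the change of low genes is understated. The step was also run on simulated data in which each gene varied independently. Those data lack the differences in composition between libraries, so they do not show how the step behaves with them. Members were named if they passed, were among the 12 smallest p or the 12 highest means, or were Il1b, Il6, Il10, Il17a, Il18, Il33, Il34 or Il1rn. Any other member given with values was chosen after they were seen. Signalling genes were named if they passed, with Socs3, Stat3, Myd88, Casp1, Osmr and Csf1r in any case. Fragments were estimated from the spacing of low FPKM values and exon length, roughly 8400000 to 14500000 per library, an approximate figure that carries no interval. Alternatives were other pseudocounts and filters, TMM and quantile scaling, scaling to protein-coding fragments, and each library left out.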

Additional observations from a re-analysis of the deposited data

Results flagged for a closer look

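Of 52 groups of 4 libraries examined among the named genes, 4 held a library far from the others, by the gap to the nearest library as a share of the group's range (Dixon's test). Chance gives such a library in about 1 of 20 groups. Il1rn was at 0.51 FPKM in hypoxia library 1 (gap 0.878 of the range), above 0.08 FPKM or less in the rest. Il1b was at 2.18 FPKM in normoxia library 7 (0.883) and Myd88 at 13.4 FPKM in the same library (0.861), the library that was also the highest for 17 of the 25 tested members. Il6 was at 0 FPKM in normoxia library 5 (0.889), with the other normoxia libraries at 0.08 or 0.09 FPKM.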

How the results depend on the processing

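Members higher and signalling genes higher were 0 under every alternative run. Members lower numbered 1 as reported. They numbered 0 with a filter of 0.1 FPKM (4 of all 21671 genes lower), 2 FPKM (79 of 8466) or none (0 of 30982 by limma, with 1356 at an unadjusted p under 0.05), 2 by TMM, quantile or protein-coding scaling, and 0 to 2 with each library left out (0 without hypoxia library 2, 3 or 4 or normoxia library 7, where 63, 44, 54 and 5 of all 14444 genes were lower). Il1rn was not tested at a filter of 2 FPKM. Its limma adjusted p was 0.0684 with a filter of 0.1 FPKM and 0.292 with none. Without normoxia library 5, members lower numbered 5 by TMM and 8 by protein-coding scaling, beside 5.34% and 8.92% of all genes, and without library 7 protein-coding scaling gave 0, beside 0.0623%. Signalling genes lower numbered 0 as reported. They numbered 2 by TMM, 4 by quantile and 1 by protein-coding scaling, beside 1.32%, 2.42% and 1.58% of all genes. With each library left out they numbered 0 to 2. Members and signalling genes lower each numbered 2 without normoxia library 6 or 8. There, 208 and 226 of all 14444 genes were lower. Without library 5, signalling genes lower numbered 5 by TMM and 10 by protein-coding scaling, beside 5.34% and 8.92% of all genes. The cause was not tested. Protein-coding scaling without library 5 or 7 was chosen after seeing the data. Of 427 results of named genes under alternatives, 384 kept direction and side of the threshold, 18 passed it, 7 lost it and 18 changed sign. Those that changed sign were Il13ra1 (0.17 by TMM, 0.12 by quantile, 0.13 by protein-coding scaling, 0.23 with that scaling without library 7, and -0.36 to 0.30 with each library left out), Il10rb (0.10 with protein-coding scaling without library 7, and -0.58 to 0.19), Il11ra1 (-0.19 to 0.44), Myd88 (0.07 with that scaling without library 7, and -0.64 to 0.16) and Stat3 (-0.66 to 0.10). No paired analysis was possible because the hypoxia libraries are numbered 1 to 4 and the normoxia libraries 5 to 8, so the groups share no replicate number. Depth limits the low members: a value of 0.02 FPKM of Il1rn is about 1 fragment.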
